A study of Mus musculus with 8 samples.

Results

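The genes described here encode the subunits of the proteasome and the proteins that assemble, activate or inhibit it. They were chosen by symbol (Psma, Psmb, Psmc, Psmd, Psme, Psmf or Psmg followed by a number). This rule uses no measured value, but it was set with earlier results of these data known. Of the 26142 genes with a symbol in the transcript files, 49 met it. Their RNA was followed in sorted bone marrow pre-B cells by RNA-seq, and the chromatin at their promoters in sorted LSK cells, the lin- Sca1+ cKit+ compartment of hematopoietic stem and progenitor cells, by ATAC-seq, in which a transposase inserts into open DNA. Each assay had 2 libraries of Dido1ΔE16 mice and 2 libraries of control littermates. The Dido1ΔE16 mice (Dido1flE16/∆E16;R26R-EYFP;iCreVav1) carried 1 constitutively deleted and 1 floxed allele of exon 16 of Dido1, the exon that encodes the C terminus of the Dido3 isoform. The controls, called WT, were Dido1flE16/+ and carried the same Vav1-driven Cre and EYFP reporter, so both groups shared a floxed allele, the reporter and the Cre, which acts throughout the hematopoietic lineage. The strain label was C57BL/6, the mice were 6 to 10 weeks old and matched for sex and age, and each RNA library came from a pool of mice, so that p-values measure the spread between such pools. The comparison asks whether the levels of proteasome RNA and the accessibility of the promoters differed when exon 16 was absent.

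The proteasome degrades proteins tagged with ubiquitin. Its 20S core is a barrel of alpha rings, which gate the entrance, and beta rings, in which Psmb5, Psmb6 and Psmb7 carry the proteolytic sites. The 19S cap binds ubiquitin, unfolds the substrate with a ring of ATPases and feeds it into the core. In lymphoid cells, and in other cells after interferon, Psmb8, Psmb9 and Psmb10 replace Psmb5, Psmb6 and Psmb7 to form the immunoproteasome, which is known for cutting peptides for MHC class I. Psmb8 and Psmb9 lie in the MHC class II region beside the peptide transporter genes Tap1 and Tap2.

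Exon 16 of Dido1 (mm10 chr2:180657963-180662583) had a mean coverage of 15.3 and 10.2 in the WT libraries and of 0.192 and 0.0390 in the Dido1ΔE16 libraries, which checks the labels. The whole Dido1 gene was at 44.3 and 46.0 TPM (transcript abundance scaled for length and to the same total in each library) in WT and at 81.6 and 87.2 TPM in Dido1ΔE16. Defining genes of the sorted cells were present, since all 8 of the small pre-B markers had a mean of at least 1 TPM. Other cell types were present to different extents. The summed level of the 7 pro-B and large pre-B markers was 753 and 412 TPM in WT and 2811 and 1743 TPM in Dido1ΔE16. The summed level of the 8 neutrophil and monocyte markers was 199 and 1567 TPM in WT and 791 and 6584 TPM in Dido1ΔE16, and that of the 8 erythroid markers was 340 and 951 TPM against 755 and 8746 TPM. The summed level of the 8 T and NK cell markers was 6.92 and 4.83 TPM in WT and 8.79 and 26.0 TPM in Dido1ΔE16, with Cd3e, Cd3g, Cd4 and Cd8a listed at 0 in all 4 libraries. The RNA files hold no read counts, and their summed coverage was 1121 to 1635 aligned megabases per library. The ATAC libraries held 10249256 tags in WT replicate 1, 52050898 in WT replicate 2, 22533077 in Dido1ΔE16 replicate 1 and 44633938 in Dido1ΔE16 replicate 2.

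Proteasome genes were highly expressed in pre-B cells of both genotypes. Together they held 0.798% and 0.696% of all TPM in WT and 0.803% and 0.763% in Dido1ΔE16. The median TPM of the 47 members tested ranged from 125 to 150 between libraries, whereas that of all 11863 tested genes ranged from 26.8 to 30.7. A gene was tested if its mean was at least 1 TPM, and 31 of the 47 members had a mean of at least 100 TPM. The members not tested were the 2 tissue-restricted core subunits. Psma8, the alpha subunit of male germ cells, was listed at 0 in every library, and Psmb11, the beta subunit of thymic cortical epithelium, reached at most 0.199 TPM.

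None of the 47 members tested passed the test, which asked for an adjusted p under 0.05 and a log2 fold change of 0.6 or more in size (limma on log2(TPM + 1), Benjamini-Hochberg adjustment over all tested genes). Among all genes 6 of 11863 passed, which is 0.0506%, with 0.0253% higher and 0.0253% lower in Dido1ΔE16, so calls were rare throughout. The estimate was higher in Dido1ΔE16 for 26 members and lower for 21, and the median log2 fold change of the members was 0.01, against 0.07 for all tested genes. Without adjustment, 1 member (Psma7) had a p under 0.05, with a higher level in Dido1ΔE16, and no member had one with a lower level. The corresponding shares of all genes were 8.62% higher and 3.03% lower. Both Dido1ΔE16 libraries were above both WT libraries in 8 members, where 27.2% of all tested genes were, and below them in 3 members, where 15.5% of all tested genes were. The 8 members were Psma7, Psmb8, Psmb9, Psmb10, Psmc2, Psmd2, Psmd3 and Psme2b, and the 3 members were Psma2, Psmb1 and Psmd9.

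The precision of these estimates set what could be seen. The median standard error of the members was 0.17 on the log2 scale, and the 95% confidence interval lay within 0.6 on either side of 0 in 27 of the 47 members. In the other members the interval did not exclude a difference of that size in at least 1 direction. The WT libraries also differed between themselves, since 40 of the 47 members were higher in WT replicate 1 than in WT replicate 2, by a median of 0.23 on the log2 scale, against 0.09 for all tested genes. The summed level of the 8 cycling-cell markers was 1698 TPM in WT replicate 1 and 369 TPM in WT replicate 2, and 843 and 978 TPM in Dido1ΔE16, and its part in the members' values was not tested. The plot of log2 fold changes by role shows the estimates of all tested members.

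**Figure D1:**
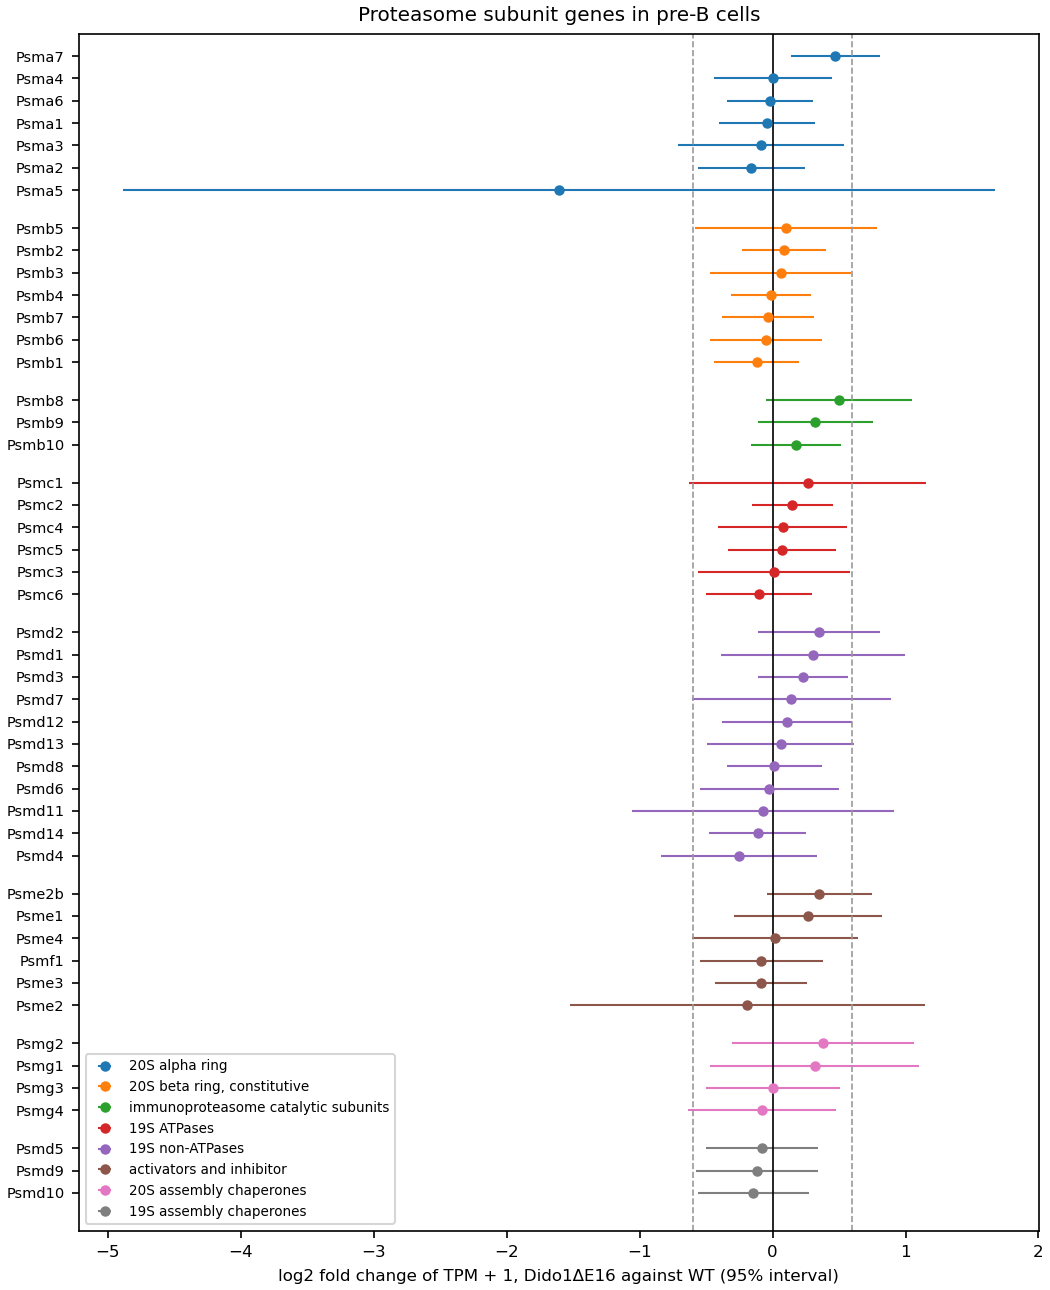
Log2 fold change of TPM + 1 in pre-B cells, Dido1ΔE16 against WT (x axis), for the 47 tested proteasome genes (y axis), coloured by role. Points are limma estimates from 2 libraries per genotype, bars are 95% confidence intervals, and dashed lines mark 0.6 on either side of 0. Most estimates lie near 0, and the widest interval is that of Psma5, which was listed at 0 in 1 library.

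The alpha ring subunits close the core and dock its activators. Their summed level was 1204 and 1057 TPM in WT and 1163 and 1139 TPM in Dido1ΔE16, so the genotypes overlapped. The estimate was higher in 2 of the 7 members and lower in 5, and none was called. Psma7 was at 156 and 144 TPM in WT and at 216 and 200 TPM in Dido1ΔE16. Both Dido1ΔE16 libraries lay above both WT libraries, with a log2 fold change of 0.47 (SE 0.12, interval 0.14 to 0.81), but the adjusted p in limma was 0.315. With the symbols of the authors only, which cover part of its transcripts, the estimate of Psma7 was 1.24 (adjusted p in limma 0.419). Psma2 was at 161 and 133 TPM in WT and at 131 and 130 TPM in Dido1ΔE16, a log2 fold change of -0.16 (SE 0.15) without overlap between the groups. Psma5 was at 8.87 and 8.82 TPM in WT, was listed at 0 in Dido1ΔE16 replicate 1 and was at 9.44 TPM in Dido1ΔE16 replicate 2. Its log2 fold change of -1.61 (SE 1.20) rests on the library at 0, and was 0.08 without it.

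Psma5 is one of 8 members for which the counting may be split between near-identical loci. At least 50% of a transcript of Psma3, Psma4, Psma5, Psmb3, Psmb5, Psmd2, Psmd11 or Psme2 aligned elsewhere in the genome with at least 95% identity. The low levels of Psma3 (10.4 to 13.2 TPM) and Psma5, whose alpha ring partners Psma1 and Psma6 stood between 277 and 420 TPM, are therefore uncertain. The copies of Psma3 reached 100% identity and those of Psma5 98.6%.

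The constitutive beta subunits were the most abundant group, with a median WT level of 304 TPM per gene. Their summed level was 1876 and 1709 TPM in WT and 1815 and 1717 TPM in Dido1ΔE16, and none of the 7 was called. Psmb5, the chymotrypsin-like site, was at 110 and 72.7 TPM in WT and at 105 and 88.3 TPM in Dido1ΔE16. Psmb6, the caspase-like site, was at 186 and 159 TPM in WT and at 179 and 153 TPM in Dido1ΔE16. Psmb7, the trypsin-like site, was at 339 and 295 TPM in WT and at 313 and 305 TPM in Dido1ΔE16. The genotypes overlapped for all 3 catalytic genes, whose log2 fold changes were 0.10 (SE 0.25), -0.05 (SE 0.16) and -0.03 (SE 0.13). Psmb1, a structural subunit, was at 456 and 439 TPM in WT and at 429 and 394 TPM in Dido1ΔE16, below WT in both libraries, with a log2 fold change of -0.12 (SE 0.12, adjusted p in limma 0.735).

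The immunoproteasome subunits were the only role group in which every member had both Dido1ΔE16 libraries above both WT libraries, although none passed the test. Psmb8, which takes the place of Psmb5, was at 324 and 230 TPM in WT and at 396 and 377 TPM in Dido1ΔE16. Its log2 fold change was 0.50 (SE 0.20, interval -0.05 to 1.05) with an adjusted p in limma of 0.473, and the estimate ranged from 0.25 to 0.74 with each library left out. Psmb9, which takes the place of Psmb6, was at 234 and 211 TPM in WT and at 309 and 250 TPM in Dido1ΔE16. Its log2 fold change was 0.32 (SE 0.16, interval -0.11 to 0.75) with an adjusted p in limma of 0.553, and the estimate ranged from 0.17 to 0.47 with each library left out. Psmb10, which takes the place of Psmb7, was at 264 and 269 TPM in WT and at 322 and 282 TPM in Dido1ΔE16. The gap between the groups was smallest in Psmb10, with a log2 fold change of 0.18 (SE 0.12, interval -0.16 to 0.52) and an adjusted p in limma of 0.673, and the estimate ranged from 0.08 to 0.27 with each library left out. With 27.2% of all tested genes showing the same order of libraries, the order in 3 genes is a description of these libraries.

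The share of the catalytic subunits' TPM in Psmb8, Psmb9 and Psmb10 compares these genes within each library. It was 56.4% and 57.5% in WT and 63.2% and 62.4% in Dido1ΔE16, that is 56.9% ± 0.735 (SD, n = 2) against 62.8% ± 0.556 (SD, n = 2). The difference of 5.90 percentage points was larger than the spread between the libraries of a genotype, but a two-sided exact permutation test of 2 against 2 libraries gave p = 0.33, the smallest p this design allows. The summed TPM of the immunoproteasome genes was 822 and 710 in WT and 1027 and 909 in Dido1ΔE16, while that of Psmb5, Psmb6 and Psmb7 was 635 and 526 in WT and 597 and 547 in Dido1ΔE16. The ratio of Psmb8 to Psmb5 was 2.94 and 3.17 in WT and 3.77 and 4.28 in Dido1ΔE16, and the ratio of Psmb9 to Psmb6 was 1.26 and 1.33 against 1.72 and 1.63. The ratio of Psmb10 to Psmb7 was 0.780 and 0.912 in WT and 1.03 and 0.924 in Dido1ΔE16, where the closest libraries differed by less than those of a genotype. Since Psmb5 has a copy of 99.0% identity, the share was also taken without Psmb5 and Psmb8, which gave a difference of 4.88 points.

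**Figure D2:**
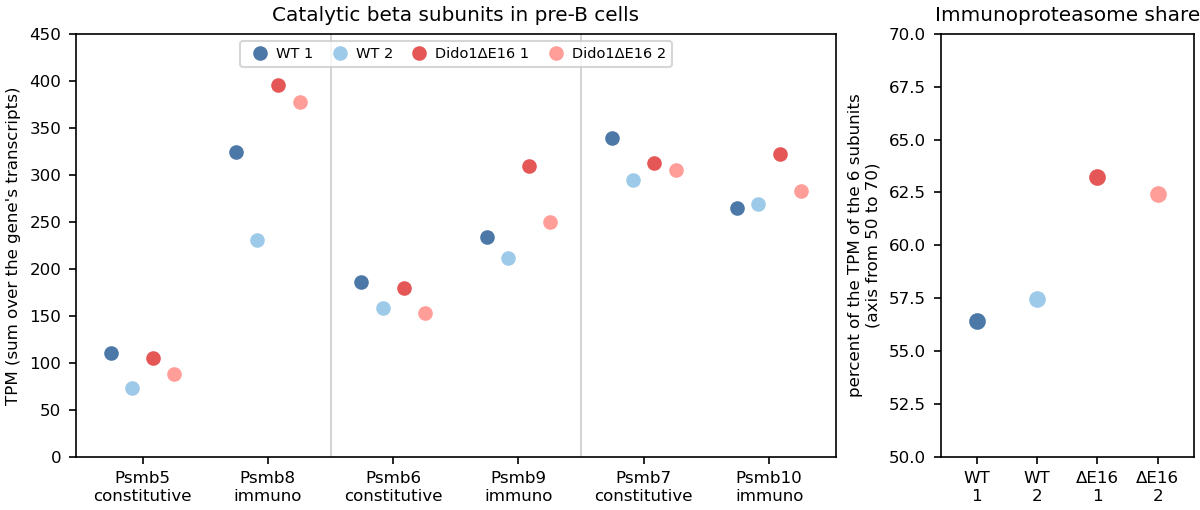
Left, TPM of each catalytic beta subunit and of its immunoproteasome counterpart (x axis) in the 4 pre-B RNA libraries, 1 point per library. Right, percent of the summed TPM of these 6 genes in Psmb8, Psmb9 and Psmb10, on an axis from 50 to 70. The WT points of the right panel lie at 56.4% and 57.5% and the Dido1ΔE16 points at 63.2% and 62.4%.

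The markers of other cells moved in part with these values. The pro-B and large pre-B sum was higher in both Dido1ΔE16 libraries, as given above. So was the sum of the 7 mature B cell markers, at 4069 and 4030 TPM in WT and 4766 and 5680 TPM in Dido1ΔE16, with Ighd at 0 in all 4 libraries. That sum was mostly Cd74 (2687 and 2665 TPM in WT, 3724 and 4389 TPM in Dido1ΔE16), and the estimates of Ms4a1, Fcer2a, Cr2 and H2-Aa were lower in Dido1ΔE16. The neutrophil and monocyte sum was 199 and 1567 TPM in WT and 791 and 6584 TPM in Dido1ΔE16, and overlapped between the genotypes. The catalytic share of these libraries was 56.4% and 57.5% in WT and 63.2% and 62.4% in Dido1ΔE16. The part of the other cells in the immunoproteasome values was not tested. In bulk RNA a different mix of cells and a different amount of RNA per cell cannot be told apart. Of the genes of MHC class I peptide presentation listed beside the immunoproteasome, 14 were tested and none was called, with a smallest adjusted p in limma of 0.346. All 14 had a higher estimate in Dido1ΔE16, as had 6914 of all 11863 tested genes. Their median log2 fold change was 0.34, against 0.07 for all tested genes. In 13 of them both Dido1ΔE16 libraries were above both WT libraries, where 27.2% of all tested genes were. Tap1, which shares a bidirectional promoter with Psmb9, was at 167 and 144 TPM in WT and at 219 and 193 TPM in Dido1ΔE16. Nlrc5, a transactivator of MHC class I genes, was at 21.9 and 16.6 TPM in WT and at 38.8 and 25.3 TPM in Dido1ΔE16.

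The 6 ATPases of the 19S base, which unfold the substrate, summed to 1129 and 864 TPM in WT and to 1060 and 1003 TPM in Dido1ΔE16. The estimate was higher in 5 and lower in 1, between -0.10 and 0.26 on the log2 scale, and WT replicate 2 was the lowest library of the group. Psmc2 alone had no overlap, at 131 and 127 TPM in WT and at 143 TPM in both Dido1ΔE16 libraries, with a log2 fold change of 0.15 (SE 0.11, adjusted p in limma 0.679). The 11 other 19S subunits, which include the scaffold, ubiquitin receptors and a deubiquitinase, summed to 1757 and 1419 TPM in WT and to 1667 and 1588 TPM in Dido1ΔE16. The estimate was higher in 7 and lower in 4. Psmd2, a scaffold subunit of the base, was at 74.1 and 58.3 TPM in WT and at 84.0 and 83.9 TPM in Dido1ΔE16, a log2 fold change of 0.35 (SE 0.17, adjusted p in limma 0.544). Psmd4, a ubiquitin receptor, was at 247 and 251 TPM in WT and at 252 and 173 TPM in Dido1ΔE16, so that its estimate of -0.25 (SE 0.22) came from Dido1ΔE16 replicate 2, and was 0.02 without it. With the symbols of the authors only, the estimate of Psmd4 was -3.97 (adjusted p in limma 0.699). Psmd14, the deubiquitinase of the lid, was at 108 and 98.2 TPM in WT and at 90.8 and 99.8 TPM in Dido1ΔE16.

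Of the activators, Psme1 and Psme2 form the interferon-inducible PA28 cap. Psme1 was at 165 and 232 TPM in WT and at 246 and 225 TPM in Dido1ΔE16, with overlap between the groups and a log2 fold change of 0.26 (SE 0.20). Psme2 was at only 5.94 and 3.33 TPM in WT and 5.54 and 2.53 TPM in Dido1ΔE16, while the locus annotated as Psme2b, with 1 exon on chromosome 11, was at 225 and 272 TPM in WT and at 306 and 327 TPM in Dido1ΔE16. The Psme2 transcript aligned to the Psme2b locus with 99.4% identity over 82.5% of its length, so the reads of the genes cannot be told apart and neither level can be taken on its own. The log2 fold change of Psme2b was 0.35 (SE 0.15, interval -0.05 to 0.75) with an adjusted p in limma of 0.482, and both Dido1ΔE16 libraries were above WT. Psme3, the nuclear PA28gamma cap, was at 230 and 202 TPM in WT and at 207 and 199 TPM in Dido1ΔE16. Psme4, the PA200 cap, was at 143 and 104 TPM in WT and at 109 and 139 TPM in Dido1ΔE16, where the groups overlapped and the sign of the estimate (0.02, SE 0.23) turned when the libraries were centred on their medians or FPKM was used (-0.07 and -0.01). Psmf1, the inhibitor PI31, was at 49.4 and 51.9 TPM in WT and at 42.9 and 53.1 TPM in Dido1ΔE16.

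The chaperones that build the particle were less abundant than its subunits, with a median WT level of 49.9 TPM for the 4 core chaperones and of 54.8 TPM for the 3 base chaperones. Psmg2, which pairs with Psmg1 to guide the alpha ring, was at 50.03 and 33.6 TPM in WT and at 59.1 and 48.7 TPM in Dido1ΔE16, a log2 fold change of 0.38 (SE 0.25) with overlap between the groups. Psmd10, a chaperone of the ATPase ring also known as gankyrin, was at 51.1 and 58.4 TPM in WT and at 47.0 and 51.8 TPM in Dido1ΔE16, a log2 fold change of -0.14 (SE 0.15). All 3 base chaperones had a lower estimate in Dido1ΔE16, between -0.14 and -0.08, and none was called. Psmd9 was the only base chaperone without overlap, at 28.3 and 28.2 TPM in WT and at 27.9 and 24.1 TPM in Dido1ΔE16.

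The partners of the proteasome that the symbol rule leaves out gave a similar count. Of 28 partners listed, 26 were tested, none was called, and 13 estimates were higher and 13 lower, with a median of 0.00 on the log2 scale. Nfe2l1, the transcription factor known to raise proteasome genes when the proteasome is inhibited, was at 59.8 and 50.6 TPM in WT and at 72.9 and 73.4 TPM in Dido1ΔE16, a log2 fold change of 0.40 with an adjusted p in limma of 0.428. Pomp, the maturation factor of the core, was at 185 and 180 TPM in WT and at 193 and 159 TPM in Dido1ΔE16. Ecpas was listed at 0 in all 4 libraries.

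Single transcripts behaved less evenly than gene sums. The 49 genes had 86 transcripts in the files, of which 62 from 47 genes were tested. The transcript fit called 1 of them, where 0.153% of all 16372 tested transcripts were called, 0.0916% higher and 0.0611% lower in Dido1ΔE16. This was uc007yqq.2 of Psmd2, at 0 in both WT libraries and at 69.1 and 77.8 TPM in Dido1ΔE16, with a log2 fold change of 6.22 (SE 0.28) and an adjusted p in limma of 0.0475. A fold change from 0 depends on the pseudocount of 1 TPM and is no bound. The call was lost with a pseudocount of 0.1, without the filter on low levels, with median centring, without immunoglobulin TPM, with a replicate block, and without WT replicate 1, WT replicate 2 or Dido1ΔE16 replicate 2 (0 member transcripts called in each). The other Psmd2 transcript, uc007yqr.2, was at 74.1 and 58.3 TPM in WT and at 14.9 and 6.17 TPM in Dido1ΔE16, with a log2 fold change of -2.65 (SE 0.47) and an adjusted p in limma of 0.318. The share of Psmd2 TPM in uc007yqq.2 was thus 0% in WT and 82.3% and 92.7% in Dido1ΔE16.

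**Figure D3:**
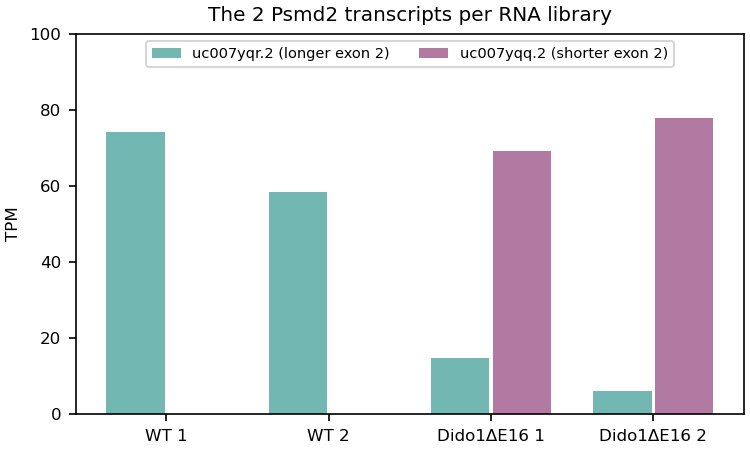
TPM (y axis) of the 2 Psmd2 transcripts in each pre-B RNA library (x axis), 1 bar per transcript and library. The shorter form is at 0 in both WT libraries and at 69.1 and 77.8 TPM in the Dido1ΔE16 libraries.

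The Psmd2 transcripts differ in 1 of their 21 exons, exon 2 (mm10 chromosome 16, plus strand), which starts at 20652152 in uc007yqr.2 and at 20652244 in uc007yqq.2 and ends at 20652300 in both. The longer form holds 92 more bases. In GENCODE the shorter exon 2 belongs to protein-coding transcripts and the longer one to a transcript marked for nonsense-mediated decay. The 57 shared bases are 0.383 of the longer exon. Coverage was uneven along uc007yqr.2, from 0 in exon 8 to 146 in exon 21 in WT replicate 1. In WT, where all reads were given to this transcript, the coverage of its exon 2 was 0.336 and 0.376 of that of its exon 3. In Dido1ΔE16 the same ratio was 0.775 and 0.830 for uc007yqr.2, and 1.13 and 0.952 for uc007yqq.2. A copy of Psmd2 on chromosome 10 aligned over 98.2% of the transcript with 96.4% identity. Which reads placed Psmd2 in either transcript was not tested.

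The TPM of other members was also given to different transcripts in different libraries. There were 9 tested member transcripts at 0 in at least 1 library and at 10 TPM or more in another, and 1 of them, the Psmd2 transcript, was at 0 in both libraries of a genotype and above 0 in both of the other. The Psmc4 transcript uc009fxp.1, at 34.0 and 0 TPM in WT and 52.1 and 53.7 TPM in Dido1ΔE16, and the Psmd4 transcript uc008qhv.2, at 12.2 and 6.5 TPM in WT and 4.29 and 0 TPM in Dido1ΔE16, did not overlap between the genotypes either, and neither was called. The others overlapped or were tied at 0. How many of all 16372 tested transcripts showed these patterns was not counted, so the counts only describe the members. Psmd11 was at 59.3 and 49.4 TPM in uc007kmf.1 in replicate 1 of either genotype, where uc007kme.1 was at 0. In replicate 2 of either genotype uc007kmf.1 was at 0, and uc007kme.1 was at 32.5 TPM in WT and 35.2 TPM in Dido1ΔE16. Psmd4 was given to uc008qhr.2 in 3 libraries, at 234 to 248 TPM, and to uc008qht.2 in Dido1ΔE16 replicate 2, at 173 TPM. Psmd8 was at 362 TPM in uc009gbb.2 in WT replicate 1 and at 314 TPM in uc009vei.1 in WT replicate 2. Psma7 kept both of its transcripts in every library, and uc008oib.2 held 15.7% and 33.9% of its TPM in WT and 41.4% and 38.4% in Dido1ΔE16.

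At the chromatin level, most proteasome promoters were open in LSK cells of both genotypes. A promoter peak is a MACS2 peak annotated between 1000 bases before and 200 bases after a start site of the gene. Such a peak was present in 42 of 49 members in each WT library, 39 of them in both, in 37 in Dido1ΔE16 replicate 1 and in 39 in Dido1ΔE16 replicate 2. Of all 26142 genes, 36.0% and 46.4% had one in the WT libraries and 29.0% in each Dido1ΔE16 library. Among the genes tested in RNA, a closer match in expression, the shares were 65.0% and 76.6% in WT and 57.4% and 55.5% in Dido1ΔE16. The mean difference was -4 members, with an exact two-sided permutation p of 0.33, the smallest possible. The libraries differed in the number of peaks, with 27352 and 57739 in WT and 13208 and 16329 in Dido1ΔE16. When the 13208 best-scoring peaks of each library were used, 28 and 30 members had a promoter peak in WT and 37 and 36 in Dido1ΔE16, so the direction turned. With HOMER peaks the counts were 37 and 43 in WT and 39 in each Dido1ΔE16 library. The HOMER shares of all genes were 34.4% and 47.1% in WT and 30.7% and 34.6% in Dido1ΔE16. Those of the genes tested in RNA were 63.1% and 76.8% in WT and 60.4% and 64.55% in Dido1ΔE16.

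A peak was found in all 4 libraries for 32 members, or 65.3%, where 23.1% of all genes and 46.2% of the genes tested in RNA had one. Among these 32, Psmc4, an ATPase of the base, had the highest mean rank, with scores of 115, 323, 119 and 87 in WT replicates 1 and 2 and Dido1ΔE16 replicates 1 and 2, at percentiles of 93.5 to 99.3 in their libraries. Psma5 and Psma6 followed, with score percentiles of 87.7 to 97.4 and of 92.3 to 96.2. Over all members with a peak, the median percentile was 63.5 and 85.4 in WT and 57.2 and 46.7 in Dido1ΔE16, where the medians of all genes were 70.4 and 79.8 against 62.8 and 63.9. The mean difference of -22.5 points between the genotypes became -1.56 points when the same number of peaks was used.

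**Figure D4:**
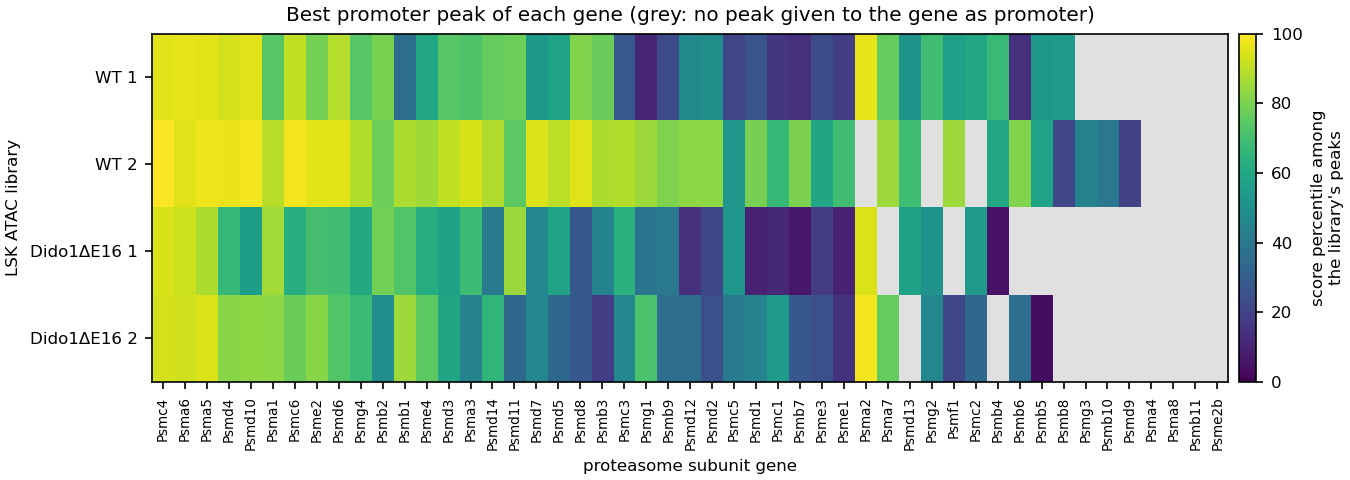
Score percentile (colour, 0 to 100, among all MACS2 peaks of the library) of the best promoter peak of each of the 49 proteasome genes (x axis) in the 4 LSK ATAC libraries (y axis). Grey cells have no peak annotated to the gene as promoter. The genes are ordered by the number of libraries with a peak, and 32 of them have a peak in all 4.

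The other 17 members lacked a promoter peak in at least 1 library. Psma4, Psma8, Psmb11 and Psme2b had none in any library, but a peak overlapped the start site window of Psma4 in all 4. Psma2, Psmc2 and Psmg2 lacked one in WT replicate 2 only, and Psmd13 in Dido1ΔE16 replicate 2 only, and these 4 had a peak in the start site window there. Psma7, Psmb5, Psmb6 and Psmf1 lacked one in Dido1ΔE16 replicate 1 only, and Psmb4 in Dido1ΔE16 replicate 2 only. Unlike the gaps of the 4 members above, these remained in the start site window, and they fell in the libraries with the fewest peaks. Psmb10, Psmd9 and Psmg3 had a promoter peak in WT replicate 2 only, the library with most peaks, with scores of 39, 26 and 43. Psmb8 alone had a peak in both WT libraries and in neither Dido1ΔE16 library, a pattern seen in 5.11% of all genes and in 5.83% of the genes tested in RNA.

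Of the 39 members with a promoter region shared by the WT libraries, Psmb8 was thus the 1 whose region was absent from both Dido1ΔE16 libraries, or 2.56%. The same happened at 14.1% of all genes with such a region and at 8.87% of those tested in RNA. The Psmb8 peaks were weak, with scores of 37 and 27 in WT, at the 54.9th and 21.4th percentile of their libraries. HOMER gave Psmb8 a peak in WT replicate 2 only. With the same number of peaks per library, the WT replicate 2 peak of Psmb8 was itself below the limit, so that no shared WT region was left to compare. In the pre-B cells the Psmb8 RNA was not lower in Dido1ΔE16, as given above, but the assays were made in different cells. Psmb9 had a peak in all 4 libraries, with scores of 23, 97, 35 and 24, and Psmb10 in WT replicate 2 only. The region that both WT peaks cover at Psmb8 lay at chr17:34197630-34197809 (mm10, plus strand), 386 bases before the start of Psmb8 at 34198195. It is printed here from GRCm38.p6, followed by the 250 bases before the RefSeq start of Psmb9 at chr17:34187331-34187580 (minus strand), which lay inside a peak in all 4 libraries. Capitals mark the motifs searched on both strands.
Psmb8: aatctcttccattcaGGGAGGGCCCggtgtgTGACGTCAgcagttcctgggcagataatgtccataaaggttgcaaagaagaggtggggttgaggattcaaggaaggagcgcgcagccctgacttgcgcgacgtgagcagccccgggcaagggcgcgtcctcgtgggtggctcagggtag
Psmb9: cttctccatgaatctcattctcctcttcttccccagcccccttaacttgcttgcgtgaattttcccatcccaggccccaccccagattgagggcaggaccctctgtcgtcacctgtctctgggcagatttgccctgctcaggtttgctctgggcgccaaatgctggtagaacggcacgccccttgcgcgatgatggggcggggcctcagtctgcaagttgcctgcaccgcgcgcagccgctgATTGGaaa

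The Psmb8 region held TGACGTCA, the palindromic cAMP response element, from base 32, and a kappa B pattern (GGGA and CC with 4 bases between them) from base 16. TGACGTCA occurred in 1.66% and the kappa B pattern in 15.6% of the 180 bases directly before the start of all 27025 genes with a RefSeq promoter. The Psmb8 region lay further from its start, so the positions compared are unlike. The Psmb9 window held a CCAAT box on the strand opposite to the gene, written ATTGG, from 8 bases before the start. These are matches of letters and no measured binding.

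The constitutive partners and Psmc4 are shown for comparison. The windows are the 250 bases before the RefSeq start of Psmb5 at chr14:54617996-54618245 (minus strand), Psmb6 at chr11:70525107-70525356 (plus strand) and Psmc4 at chr7:28050093-28050342 (minus strand), all GRCm38.p6. Psmb5 and Psmb6 had a peak in 3 libraries, and the Psmc4 peaks covered 233 to 250 of its 250 bases in all 4. At Psmb5 the peaks covered 79 and 250 bases of the window in WT and 43 in Dido1ΔE16 replicate 2. At Psmb6 they covered 125 and 250 bases in WT and 117 in Dido1ΔE16 replicate 2.
Psmb5: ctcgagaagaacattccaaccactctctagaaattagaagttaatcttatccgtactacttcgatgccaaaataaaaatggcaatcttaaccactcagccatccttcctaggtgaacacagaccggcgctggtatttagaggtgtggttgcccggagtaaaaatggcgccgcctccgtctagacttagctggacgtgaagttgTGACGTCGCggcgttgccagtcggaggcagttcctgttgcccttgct
Psmb6: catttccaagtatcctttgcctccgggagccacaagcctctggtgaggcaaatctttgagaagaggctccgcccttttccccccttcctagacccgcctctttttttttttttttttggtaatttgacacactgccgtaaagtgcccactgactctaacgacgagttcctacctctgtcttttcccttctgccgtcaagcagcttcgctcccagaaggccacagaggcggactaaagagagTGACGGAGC
Psmc4: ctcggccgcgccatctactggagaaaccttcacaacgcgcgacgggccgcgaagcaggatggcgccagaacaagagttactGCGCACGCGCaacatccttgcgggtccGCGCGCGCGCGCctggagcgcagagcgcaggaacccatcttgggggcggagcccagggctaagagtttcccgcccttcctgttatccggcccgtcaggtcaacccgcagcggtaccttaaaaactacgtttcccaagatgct

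In Psmb5 and Psmb6 the capitals mark TGACNNNGC, the core of the antioxidant response element that Nfe2l1 and Nfe2l2 are known to bind, 47 and 9 bases before the start. In Psmc4 they mark 3 matches of the NRF1 pattern (GCGC and GCGC with 2 bases between them), of which those at 142 and 140 bases before the start overlap. Over the 41 of 49 members that matched a RefSeq promoter, TGACNNNGC was found in 5, or 12.2%, against 11.5% of all genes. CCGGAAG, the ETS pattern, was found in 12 members, or 29.3%, against 7.83% of all genes, and the NRF1 pattern in 6, or 14.6%, against 5.64%. CCAAT was found in 34.1% of members against 37.5% of all genes, a pair of IRF half-sites (GAAA and GAAA with 2 bases between them) in 7.3% against 3.46%, and the kappa B pattern in 24.4% against 19.7%. TGACGTCA was in none of the 41 promoter windows, against 1.77% of all genes. The windows of the members were richer in G and C, with a median of 57.4% against 52.4%, and held a median of 14 CG dinucleotides against 6, and the part of base composition in these shares was not tested.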

How the data were processed

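Pre-B RNA and LSK ATAC libraries (4 each, 2 per genotype) were grouped by the labels. For RNA, the authors aligned reads to mm10 with BWA 0.7.15 and ran StringTie on UCSC transcripts; the deposited files are text of other attributes that hold coverage, FPKM and TPM per transcript and no read count. For ATAC, the authors removed duplicates, ran MACS2 and HOMER on each library and annotated the peaks with ChIPseeker; the deposited score of a MACS2 peak ranks peaks within a library, and the HOMER score is constant. The file headers also gave the tag totals per library.

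Transcript TPM were summed per gene with the symbols of the authors (30124 transcripts), completed from GENCODE M21 by exon overlap of at least 50% (26256 transcripts). Log2(TPM + 1) was fitted in limma 3.58.1 (R 4.3.3) with genotype as the only term, a trended prior and Benjamini-Hochberg adjustment, for genes with a mean of at least 1 TPM. Shares were compared by exact permutation of libraries (scipy 1.17.1). A WT region is the overlap, by at least 1 base, of promoter peaks of both WT libraries. Copies were sought with minimap2 2.31-r1302. All scripts that test many genes were tested on simulated data. Alternatives were another pseudocount, no filter, median centring, FPKM, TPM without immunoglobulins, no trend, a replicate block, each library left out, HOMER peaks, equal peak numbers, a start site window and a stricter overlap. The tables of the authors' comparisons (fold changes and p-values) were not used beyond transcript names and tag totals, nor were 4 columns of tag counts. Values were named by rule: the catalytic, activator and inhibitor genes, members called, the 5 highest and 5 lowest estimates, and members lacking a peak. Other genes with values (such as Psmb1, Psmc2, Psmd9, Psmd14, Psmc4, Psma6, Tap1, Nlrc5, Nfe2l1 and Pomp) were picked after their values were seen. The members and lists were chosen with earlier results of these data known.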

Additional observations from a re-analysis of the deposited data

How the results depend on the processing

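No proteasome gene was called under any setting, and no named gene passed the threshold. The count of all genes called was 6 and became 0 with a pseudocount of 0.1, without the filter and with each library left out, and 87 without a trended prior. The median of the members stayed between -0.12 and 0.16 on the log2 scale with each library left out, the highest without WT replicate 1. The Psmd2 transcript was not called (0 in place of 1) with a pseudocount of 0.1, without the filter, with median centring, without immunoglobulin TPM, and with WT replicate 1, WT replicate 2 or Dido1ΔE16 replicate 2 left out (range 0 to 1). Of the 19 named genes, Psme4 changed sign with median centring (-0.0692) and FPKM (-0.00784), and 9 changed sign with some library left out, within these ranges: Psma5 -3.30 to 0.0841, Psmb5 -0.19 to 0.40, Psmb6 -0.16 to 0.0652, Psmb7 -0.13 to 0.0680, Psmd4 -0.52 to 0.0195, Psme2 -0.64 to 0.25, Psme3 -0.18 to 0.00716, Psme4 -0.21 to 0.25 and Psmf1 -0.23 to 0.0669. The difference in catalytic share was 5.38 to 6.42 points with each library left out and 4.88 without Psmb5 and Psmb8, an alternative chosen after seeing the data, as were leaving out libraries for the peak counts and percentiles, gene symbols of the authors only and leaving out members with copies. With gene symbols of the authors only, Psma7 was at 1.24 and Psmd4 at -3.97, and neither was called. FPKM cannot move a share within a library.

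The mean difference in members with a promoter peak was -4, -1 with HOMER peaks and -5 with the start site window. It was 7.5 with equal peak numbers, where the shares over all genes turned as well, and -5 to -3 with each library left out. The lost WT regions numbered 1, 0 with equal peak numbers, and 1 to 5 with each library left out: 4 without WT replicate 1, 3 without Dido1ΔE16 replicate 1 and 5 without Dido1ΔE16 replicate 2. In that order the lost shares were 9.52%, 7.69% and 12.8% of the members with a WT region. The shares were 27.4%, 22.4% and 22.7% of all genes, and 17.1%, 17.4% and 15.3% of the genes tested in RNA. With equal peak numbers 2.59% of all genes and 1.47% of those tested lost the region. With HOMER peaks the lost region was that of Psmd2, 1 of 34 or 2.94%, against 7.88% of all genes and 4.59% of those tested. The percentile difference was -33.4 to -11.5 with each library left out and -1.56 with equal peak numbers. Tags and peaks differed between libraries of a genotype. The causes of the changes listed here were not tested.

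The deviations of same-numbered RNA libraries correlated at 0.0495 over 11863 genes (2 pairs). From 2 pairs this value cannot show whether the replicate numbers pair the libraries. The summed coverage was 1581 and 1635 aligned megabases in replicate 1 of WT and Dido1ΔE16, and 1121 and 1173 in replicate 2. With a replicate block 0 genes, 0 members and 0 member transcripts (Psmd2 included) were called, and the median of the members was 0.01.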
